A study of Mus musculus with 6 samples.

Results

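The genes described here are 38 genes of the unfolded protein response and of the ATF4 stress programme, measured in 6 Msc80 cultures. Msc80 is an established line of mouse Schwann cells. Schwann cells are the glia that ensheathe and myelinate axons of peripheral nerves. The genes were taken from textbook pathway membership and matched by symbol to the Ensembl IDs of the count tables; all 38 were found among 54109 listed IDs. All 38 also had enough reads to be tested, none of them only through 1 group: the lowest count of any of them in any library was 81 reads, for Chac1. The 3 control cultures carried wild-type Sox10 and the 3 Sox10ko cultures had the gene inactivated by CRISPR/Cas9 editing. It encodes a transcription factor on which neural crest and glia depend. Both groups were grown in the same DMEM medium with 10% FCS, and no stress-inducing agent is named for either. The cultures of a group are labelled as biological replicates. The labels speak of a cell clone for the Sox10ko cultures without saying whether these came from 1 clone or several, and do not say whether control cells went through the editing procedure, so loss of Sox10 and differences between clones cannot be told apart.

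Proteins that enter the secretory pathway are folded in the endoplasmic reticulum (ER), and myelinating glia, which make large amounts of membrane protein and lipid, are among the cells in which ER stress has been studied in inherited neuropathies. When unfolded proteins accumulate, the ER membrane proteins PERK (gene Eif2ak3), IRE1 (gene Ern1) and ATF6 signal to the nucleus. PERK phosphorylates the translation factor eIF2, which lowers protein synthesis while favouring translation of the transcription factor ATF4. IRE1 splices Xbp1 mRNA so that it encodes an active factor, and ATF6 is cut in the Golgi to release its own. Since eIF2 is also phosphorylated by kinases that sense amino acid shortage, viral RNA or haem shortage, ATF4 targets can move without ER stress, in what is called the integrated stress response. The genes were read as 15 ATF4-type targets, 6 XBP1-type targets, 12 ATF6-type targets and 5 sensors and factors. Some folding genes are targets of both XBP1 and ATF6, so the line between those groups is a convention.

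Some targets of these factors carry short response elements near their start sites. The ER stress response element (ERSE) is CCAAT followed, after 9 bases, by CCACG. The related ERSE-II is ATTGG, 1 base and CCACG, the UPR element core is TGACGTGG, and the C/EBP-ATF site bound by ATF4 dimers is TGATGNAA, where N is any base. Promoter windows of 250 bases before to 50 bases after the start site (RefSeq, GRCm38.p6) were held for 34 of the 38 genes, as 37 windows, and each was searched on both strands. No window was at hand for Atf6, Hyou1, Aldh1l2 and Manf. ERSE letters were found in 8 of the 37 windows (21.6%), against 39 of 32851 windows of all genes (0.119%). They lay in the windows of Hspa5, Hsp90b1 (2 copies), Calr, Canx, Creld2, Pdia6, Dnajc3 and Syvn1, and in no window of an ATF4-type gene. The stretches of 4 of these genes are printed because they show the shared spacing in 3 chaperone and isomerase genes that did not pass the test and in Creld2, which fell; the element is in capitals, with 5 bases on each side, read 5′ to 3′ on the strand given.
Hspa5, chr2:34772020-34772048, plus strand: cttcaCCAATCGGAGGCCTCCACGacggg
Hsp90b1, chr10:86705528-86705556, plus strand: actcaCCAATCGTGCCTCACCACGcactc
Pdia6, chr12:17266486-17266514, plus strand: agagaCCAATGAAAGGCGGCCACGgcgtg
Creld2, chr15:88819515-88819543, minus strand: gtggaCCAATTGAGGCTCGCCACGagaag
In the Hspa5 stretch the element lies at positions -65 to -47 from the RefSeq start, counted with the start site as +1, inside an exon of a longer Hspa5 transcript of the GENCODE M21 annotation. The Hsp90b1 copy shown spans -107 to -89, the Pdia6 element -98 to -80 and the Creld2 element -126 to -108, all upstream of every annotated exon.

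TGATGNAA was found in 5 of the 37 windows (13.5%), against 3.97% of all windows. Of those 5 genes, 4 are ATF4-type and 1, Herpud1, was read here as ATF6-type. The 4 ATF4-type stretches are printed because they share their letters, while Trib3 rose in Sox10ko and the other 3 genes did not pass the test.
Trib3, chr2:152344034-152344051, plus strand: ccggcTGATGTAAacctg
Chac1, chr2:119351044-119351061, minus strand: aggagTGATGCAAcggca
Vldlr, chr19:27216815-27216832, minus strand: agcgcTGATGCAActatt
Asns, chr6:7693220-7693237, minus strand: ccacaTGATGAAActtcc
The Trib3 element spans positions 15 to 22 after the RefSeq start and lies in no GENCODE exon. The Asns element (-23 to -16) and the Vldlr element (-200 to -193) fall in an exon of their own gene in GENCODE, and the Chac1 element (-193 to -186) lies upstream of the annotated exons. Herpud1, which encodes an adaptor of ER-associated degradation, held both kinds of element.
Herpud1 TGATGNAA element, chr8:94386312-94386329, minus strand: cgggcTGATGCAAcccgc
Herpud1 ERSE-II, chr8:94386372-94386392, plus strand: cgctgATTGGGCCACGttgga
ERSE-II was also found in the window of Dnajb11, and in 12 of all 32851 windows (0.0365%). The UPR element core was in no window of the 38 genes, against 0.676% of all windows. A match of letters is a description of the sequence and was not measured as binding.

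**Figure D1:**
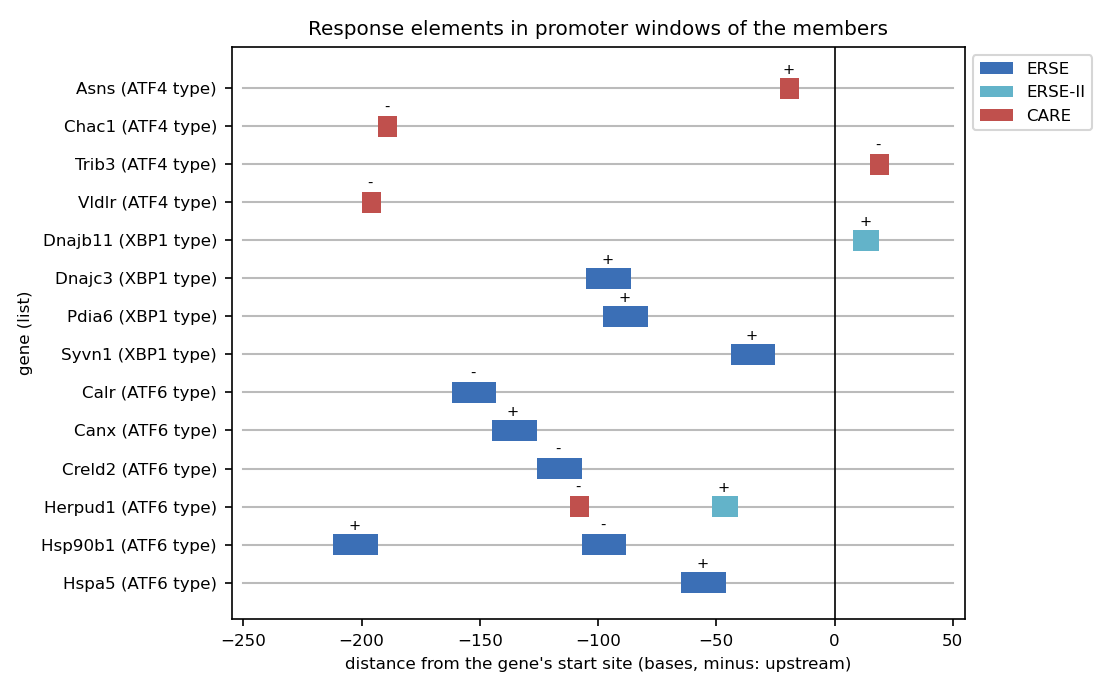
Position of ERSE, ERSE-II and TGATGNAA (CARE) letters in the promoter windows of the genes that hold any, as distance in bases from the RefSeq start site (vertical line). Grey lines are the windows, coloured bars the elements and the signs above them the strand relative to the gene; ERSE bars are in XBP1- and ATF6-type genes, and CARE bars are in ATF4-type genes and Herpud1.

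Depth ran from 32328618 to 41834431 counted reads per library. Levels are CPM, reads scaled to a common depth with TMM factors, given in the order control 1, 2 and 3, then Sox10ko 1, 2 and 3. Fold changes are fitted log2 ratios of Sox10ko over control ± SE with n = 3 libraries per group, from edgeR's quasi-likelihood test, with p-values adjusted by the Benjamini-Hochberg method over 15427 tested genes. A gene is called changed at an adjusted p under 0.05. Sox10 itself was read at 606, 627 and 617 CPM in the controls and at 82.3, 67.5 and 116 CPM in Sox10ko, in the direction of the labels; reads from an edited gene do not report on its protein. Of 9 Schwann cell markers, Sox10 included, 8 were lower in Sox10ko, and their summed level went from between 4568 and 5126 CPM to between 112 and 162 CPM. Of 6 fibroblast markers, 2 were called higher, the collagen I genes Col1a1 and Col1a2, and 3 were under 1 CPM in every library. The 6 summed to 120 to 238 CPM in the controls and 493 to 1709 CPM in Sox10ko. Col1a1 made most of that, at 116, 234 and 183 CPM in the controls and 481, 1684 and 1092 CPM in Sox10ko. Pdgfra did not pass the test (log2 fold change 0.21 ± 0.50). Leukocyte markers summed to 5.43 to 7.24 CPM in the controls and 9.51 to 13.3 CPM in Sox10ko, with 1 of 6, Cd68, called higher (log2 fold change 1.79 ± 0.33, edgeR adjusted p = 0.00650) and 2 of 6 without a read. Endothelial markers summed to 2.13 to 2.30 CPM and 0.389 to 0.728 CPM, with 1 of 4, Cdh5, called lower. Epithelial markers summed to at most 0.469 CPM. Neuronal markers summed to 90.9 to 121 CPM in the controls and 70.0 to 118 CPM in Sox10ko, and 0 of 4 were called. Most of that sum was Map2, at 118, 82.6 and 88.1 CPM in the controls and 64.3, 63.7 and 96.5 CPM in Sox10ko. Rbfox3 had no read in any library. The part of these marker shifts in the results that follow was not tested, and in bulk RNA fewer cells of a type and less RNA per cell cannot be told apart.

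Across the 38 genes the changes were few and pointed both ways. In Sox10ko, Atf5, Ddit3, Trib3, Atf6 and Ern1 rose, and Cebpg, Creld2 and Eif2ak3 fell. Over all tested genes, 32% were called in either direction, 17.3% higher and 14.7% lower; of the 38, 5 (13.2%) were called higher and 3 (7.89%) lower. The groups' libraries did not overlap for 15 of the 38, against 49.3% of all tested genes. The median log2 fold change was -0.05 over the 38 and 0.02 over all tested genes. A further 6 of the 38 had an unadjusted edgeR p under 0.05 without passing the adjustment. The 38 genes together took 0.740% to 0.852% of reads in control libraries and 0.802% to 0.832% in Sox10ko libraries.

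**Figure D2:**
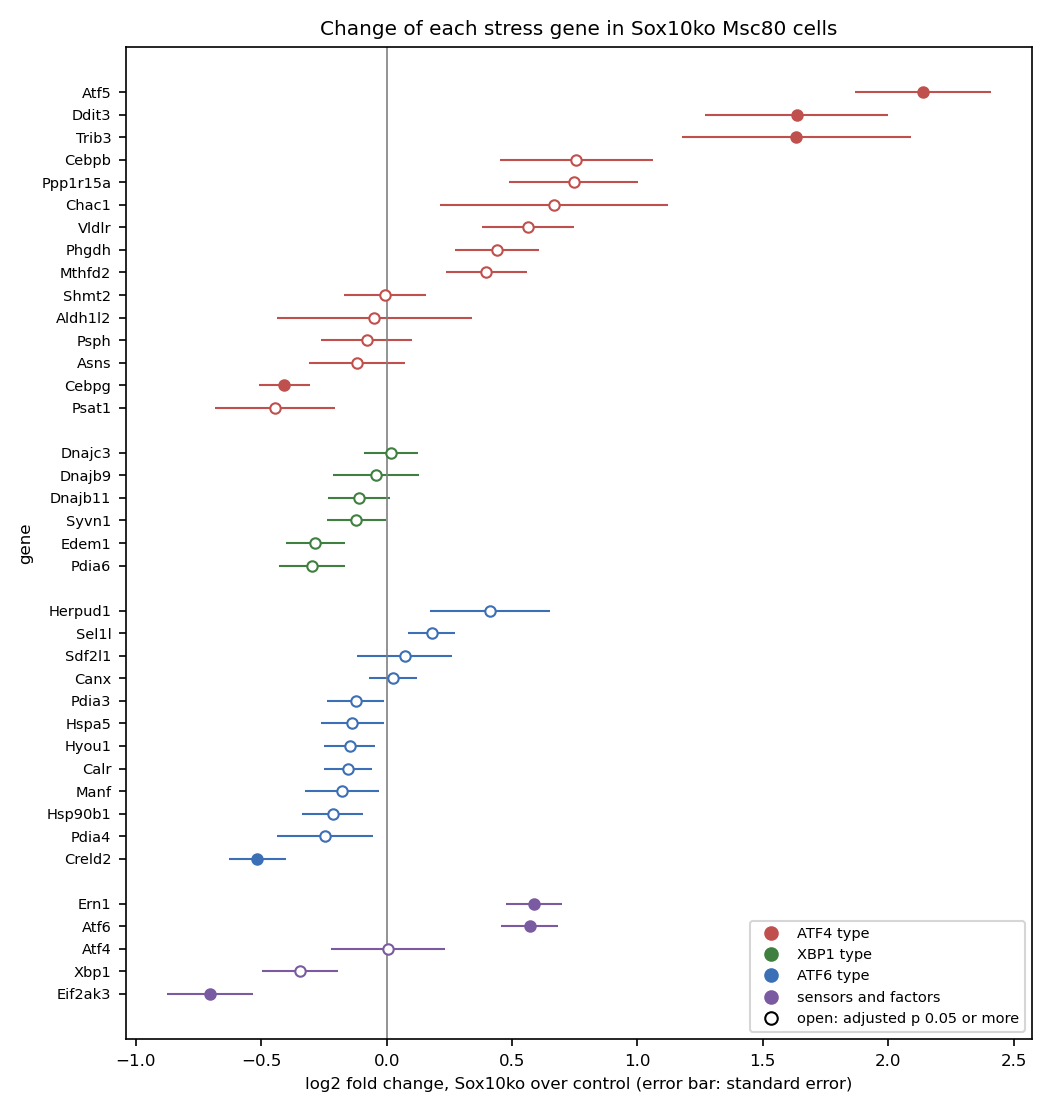
Fitted log2 fold change of Sox10ko over control for each of the 38 genes, by group, with its SE as error bar, from edgeR's quasi-likelihood fit on 3 libraries per group; filled points passed the threshold. The genes at the right, Atf5, Ddit3 and Trib3, are ATF4-type targets between 1.63 and 2.14, while the XBP1- and ATF6-type targets lie between -0.52 and 0.41.

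The ATF4-type targets that rose were the transcription factor genes Atf5 and Ddit3 and the pseudokinase gene Trib3. Of the 15 genes, 3 (20.0%) were called higher and 1 (6.67%) lower, against 17.3% and 14.7% of all tested genes, so the share called higher was near that of all genes. The median log2 fold change was 0.44. Atf5, on the minus strand of chromosome 7 (44812256 to 44816658, GRCm38), encodes a transcription factor related to ATF4 that is itself translated preferentially when eIF2 is phosphorylated. It was read at 42.6, 79.7 and 84.9 CPM in the controls and at 338, 249 and 326 CPM in Sox10ko. Every Sox10ko library was above every control library, even though control 1 was well below the other 2. Its log2 fold change was 2.14 ± 0.27 (edgeR adjusted p = 0.00137), a 4.41-fold difference between the group means of 69.0 ± 23.1 and 304 ± 48.4 CPM (SD, n = 3). Atf5 shares 82 exonic bases with Nup62 on the opposite strand, and the strand setting of the counting is not given in the sources used here.

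Ddit3 encodes CHOP, a transcription factor of the C/EBP family linked to cell death under prolonged ER stress, and lies on chromosome 10 (127290774 to 127296288, plus strand). CHOP mRNA was read at 8.54, 24.5 and 16.7 CPM in the controls and at 65.0, 41.1 and 48.7 CPM in Sox10ko. The groups did not overlap, and Sox10ko 2 was the lowest of its group. The log2 fold change was 1.64 ± 0.37 (edgeR adjusted p = 0.0138). Without control 3 it was 1.62 and missed the threshold (edgeR adjusted p = 0.0621). Ddit3 shares 68 exonic bases with the antisense gene Mars.

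Trib3 encodes a pseudokinase that is induced by ATF4 and CHOP and dampens AKT signalling; it lies on the minus strand of chromosome 2 (152337422 to 152344032). Its levels were 4.50, 15.5 and 10.3 CPM in the controls and 34.1, 19.1 and 40.8 CPM in Sox10ko. The highest control library and the lowest Sox10ko library came within a few CPM of each other without crossing. The log2 fold change was 1.63 ± 0.46 (edgeR adjusted p = 0.0312). This call was lost without Sox10ko 1, Sox10ko 3, control 1 or control 3, where the edgeR adjusted p ranged up to 0.104.

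Chac1 encodes an enzyme that degrades glutathione and is among the most induced genes in ER stress elsewhere. Here it was read at 2.20, 8.04 and 5.69 CPM in the controls and at 9.14, 5.75 and 10.4 CPM in Sox10ko. The groups overlapped, and the log2 fold change of 0.67 ± 0.45 was not distinguishable from 0 (95% interval -0.40 to 1.73, edgeR adjusted p = 0.304).

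Ppp1r15a encodes GADD34, the stress-induced subunit that directs a phosphatase to eIF2 and so ends the response. GADD34 mRNA was read at 15.1, 22.8 and 19.0 CPM in the controls and at 44.3, 24.3 and 26.8 CPM in Sox10ko. The groups did not overlap, but Sox10ko 1 stood far above the other 2, and the log2 fold change of 0.75 ± 0.26 missed the threshold (edgeR adjusted p = 0.0640). Vldlr, a lipoprotein receptor gene, was read at 77.2, 111 and 101 CPM in the controls and at 144, 115 and 169 CPM in Sox10ko. It also missed the threshold without overlap (log2 fold change 0.56 ± 0.18, edgeR adjusted p = 0.0534). Vldlr was called higher under 6 of 14 alternatives, DESeq2 among them, with adjusted p-values from 0.0127 to 0.16 over all 14.

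Of the C/EBP genes, 1 fell. Cebpg encodes the subunit that pairs with ATF4 at TGATGNAA sites, and lies on the minus strand of chromosome 7 (35046422 to 35056573). It was read at 105, 115 and 121 CPM in the controls and at 93.1, 81.4 and 82.5 CPM in Sox10ko. All 3 Sox10ko libraries were below all 3 control libraries, and its fall of 0.41 ± 0.10 on the log2 scale (fitted -0.41, edgeR adjusted p = 0.0195) was the only one called among ATF4-type targets. Leaving out Sox10ko 2, control 2 or control 3 ended the call, with edgeR adjusted p-values up to 0.0784. Cebpb, another member of the family, had levels of 13.3, 13.3 and 20.1 CPM in the controls and 33.3, 15.5 and 30.1 CPM in Sox10ko. Those groups overlapped through Sox10ko 2 (log2 fold change 0.76 ± 0.31, edgeR adjusted p = 0.0998), and Cebpb shares 312 exonic bases with the antisense Tmem189.

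The amino acid genes among the ATF4-type targets did not pass the test in either direction. This grouping of Asns with the serine and one-carbon enzymes was made after the values were seen. Asns, which makes asparagine and is a standard ATF4 reporter, was read at 93.5, 146 and 154 CPM in the controls and at 117, 111 and 135 CPM in Sox10ko. The Sox10ko libraries lay within the range of the control libraries (log2 fold change -0.12 ± 0.19, 95% interval -0.57 to 0.33, edgeR adjusted p = 0.681). Of the 6 genes of serine synthesis and mitochondrial one-carbon metabolism, 0 were called in either direction with edgeR, 2 had an unadjusted p under 0.05, and the median log2 fold change was -0.03. Over the other 9 ATF4-type genes, Asns included, it was 0.75. That split of the list was also made after the values were seen, so the gap between its parts was not tested.

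None of the 3 consecutive enzymes of serine synthesis passed the test with all 6 libraries. Phgdh, the first, was read at 69.5, 75.7 and 101 CPM in the controls and at 126, 112 and 95.9 CPM in Sox10ko (log2 fold change 0.44 ± 0.17, edgeR adjusted p = 0.0832). Without control 3 it was called higher (0.59, edgeR adjusted p = 0.0463). Psat1, the second, was read at 199, 255 and 283 CPM in the controls and at 201, 120 and 221 CPM in Sox10ko (log2 fold change -0.44 ± 0.24, edgeR adjusted p = 0.200). The groups overlapped for both genes. For Psph, the last enzyme, the log2 fold change was -0.08 ± 0.18, and reads of its antisense neighbour Cct6a, with 452 shared exonic bases, outnumbered its own by 121653 to 9291. Shmt2, which splits serine in mitochondria, had a 95% interval of -0.39 to 0.38. Mthfd2, which follows it, was read at 63, 79.6 and 83.5 CPM in the controls and at 90.1, 87.7 and 120 CPM in Sox10ko. Its groups did not overlap, and its log2 fold change of 0.40 ± 0.16 missed the threshold (edgeR adjusted p = 0.103). Aldh1l2, an enzyme of mitochondrial folate, varied widely within control, at 71.0, 205 and 114 CPM, and gave a 95% interval as wide as -0.96 to 0.86. Aldh1l2 shares 1056 exonic bases with D10Wsu102e on the opposite strand, which had 20004 reads against 29606 for Aldh1l2.

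The chaperone and degradation arm, read through XBP1- and ATF6-type targets, held 1 called gene in 18. With edgeR, 0 of the 18 rose and 1 (5.56%) fell, Creld2, against 17.3% higher and 14.7% lower over all tested genes. By direction alone 13 of the 18 had a negative log2 fold change, against 7477 of 15427 tested genes. The median was -0.13, against 0.02 over all tested genes. None of the 18 was called higher under DESeq2, limma-voom or any other alternative run, and 1 further gene, Edem1, had an unadjusted edgeR p under 0.05. The fitted 95% intervals of Hspa5, Hsp90b1, Calr, Canx and Pdia3 all lay between -0.50 and 0.25 on the log2 scale.

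Creld2 encodes a small ER protein with disulfide isomerase activity that is released under ER stress; it lies on the plus strand of chromosome 15 (88819646 to 88826683). Creld2 mRNA was read at 66.6, 54.2 and 67.6 CPM in the controls and at 43.2, 42.7 and 45.9 CPM in Sox10ko. The 3 Sox10ko libraries were close together and below all 3 controls. The log2 fold change was -0.52 ± 0.11 (edgeR adjusted p = 0.0126), with group means of 62.8 ± 7.46 and 43.9 ± 1.76 CPM (SD, n = 3). Over all genes of chromosome 15 the median log2 fold change was -0.08. When each library's chromosome medians were removed, Creld2 was at -0.40 (edgeR adjusted p = 0.0647), and without control 3 at -0.48 (edgeR adjusted p = 0.0553), in neither case past the threshold. Its neighbours in function did not pass: Manf, a secreted ER stress protein, gave -0.18 ± 0.15, and Sdf2l1, a cofactor of BiP, 0.07 ± 0.19.

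Hspa5 encodes BiP, the HSP70 chaperone of the ER that holds PERK, IRE1 and ATF6 inactive and is the usual readout of the unfolded protein response. BiP mRNA was read at 572, 693 and 736 CPM in the controls and at 565, 654 and 602 CPM in Sox10ko. The groups overlapped, and the log2 fold change was -0.14 ± 0.12 (95% interval -0.43 to 0.16, edgeR adjusted p = 0.442). Hsp90b1, the HSP90 of the ER, was read at 1162, 1260 and 1339 CPM in the controls and at 962, 1228 and 1050 CPM in Sox10ko, also with overlap (-0.22 ± 0.12, edgeR adjusted p = 0.224). These chaperones were the most abundant of the 38 genes per length: in control, Hsp90b1 stood at 311 CPM per kilobase of exon, Pdia3 at 288, Calr at 253, Canx at 207 and Hspa5 at 158. Ern1, at 3.22 CPM per kilobase, and Chac1, at 3.24, were the lowest.

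Among lectin chaperones and disulfide isomerases, Calr (calreticulin) was read at 696, 714 and 773 CPM in the controls and at 615, 667 and 681 CPM in Sox10ko. Its groups did not overlap, yet the difference of -0.15 ± 0.10 missed the threshold (edgeR adjusted p = 0.265). The partner of calreticulin, Canx, gave 0.03 ± 0.10, and Pdia3, which forms disulfides on their clients, -0.12 ± 0.11. Pdia6 was read at 391, 339 and 396 CPM in the controls and at 258, 337 and 322 CPM in Sox10ko. It too had no overlap, by a narrow margin, and missed the threshold (-0.30 ± 0.13, edgeR adjusted p = 0.125). For Pdia4 the Sox10ko 1 library, at 159 CPM, stood apart from 267 and 252 CPM in the other 2, and for Hyou1, a nucleotide exchange factor of BiP, the groups overlapped (-0.15 ± 0.10).

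None of the co-chaperones of BiP passed the test. Dnajb9 gave a log2 fold change of -0.04 ± 0.17, Dnajb11 -0.11 ± 0.12 and Dnajc3, which also restrains PERK, 0.02 ± 0.11, and the groups of all 3 overlapped. Of the degradation genes, Syvn1, the ubiquitin ligase HRD1, gave -0.12 ± 0.12. Sel1l, its membrane partner, was read at 160, 182 and 168 CPM in the controls and at 190, 203 and 185 CPM in Sox10ko, higher in every Sox10ko library but short of the threshold (0.18 ± 0.09, edgeR adjusted p = 0.185). Edem1, which hands misfolded glycoproteins to that complex, was lower in every Sox10ko library, with 93.0, 99.2 and 88.4 CPM against 68.0, 88.3 and 74.1 CPM (-0.28 ± 0.12, edgeR adjusted p = 0.109). Herpud1, which carries both kinds of element, was read at 17.5, 32.7 and 26.6 CPM in the controls and at 36.6, 27.3 and 38.4 CPM in Sox10ko. Its groups overlapped, and its log2 fold change of 0.41 ± 0.24 was the highest among the 18 without passing the test (edgeR adjusted p = 0.231).

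Read by promoter letters instead of by group, the 8 genes with ERSE ranged from -0.52 to 0.03 on the log2 fold change scale, with a median of -0.15, and 0 were called higher and 1 lower with edgeR. In the stretches printed above, the Creld2 and Hspa5 elements share both blocks and their spacing, while Creld2 fell and Hspa5 did not pass the test. The 5 genes with TGATGNAA ranged from -0.12 (Asns) to 1.63 (Trib3), with a median of 0.56 and 1 called higher. Over all tested genes 17.3% were called higher and 14.7% lower, and 1 called gene of 5 or of 8 is near these shares. Atf5 and Ddit3, which rose, held none of these letters in their windows, which says nothing of sites outside the 300 bases searched.

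The sensors and factors changed in different directions. Eif2ak3 (PERK), on the plus strand of chromosome 6 (70844515 to 70905245), was read at 34.1, 54.0 and 41.9 CPM in the controls and at 26.2, 25.3 and 28.3 CPM in Sox10ko. All Sox10ko libraries were below all control libraries, which themselves spread widely. Its log2 fold change was -0.70 ± 0.17 (edgeR adjusted p = 0.0190), and the call was lost without Sox10ko 2 (edgeR adjusted p = 0.0507) or control 3 (0.0574 in the same test).

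Ern1 (IRE1), on the minus strand of chromosome 11 (106394650 to 106487852), was read at 26.9, 27.5 and 24.5 CPM in the controls and at 43.5, 38.4 and 36.7 CPM in Sox10ko. The groups were well separated, and the log2 fold change was 0.59 ± 0.11 (edgeR adjusted p = 0.00691). Atf6, on the minus strand of chromosome 1 (170704674 to 170867771), was read at 156, 131 and 129 CPM in the controls and at 197, 225 and 197 CPM in Sox10ko. It was higher in all 3 Sox10ko libraries, by 0.57 ± 0.11 (edgeR adjusted p = 0.00894), and missed the threshold without control 3 (edgeR adjusted p = 0.0553).

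The factors made from Atf4 and Xbp1 are also controlled after transcription, and neither of these genes passed the test. Atf4 mRNA was read at 228, 309 and 309 CPM in the controls and at 359, 198 and 292 CPM in Sox10ko. The Sox10ko libraries held both its highest and its lowest value, and the group means were 282 ± 46.5 and 283 ± 81.0 CPM (SD, n = 3; log2 fold change 0.01 ± 0.23, 95% interval -0.53 to 0.54). Xbp1 was read at 62.4, 85.9 and 88.9 CPM in the controls and at 63.7, 66.6 and 56.3 CPM in Sox10ko. Its groups overlapped through control 1 (log2 fold change -0.35 ± 0.15, edgeR adjusted p = 0.123), and without that library the change was -0.51 (edgeR adjusted p = 0.0275). Counts per gene show neither the splicing of Xbp1, nor ATF4 protein, nor cleavage of ATF6, nor phosphorylation of PERK, IRE1 or eIF2.

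**Figure D3:**
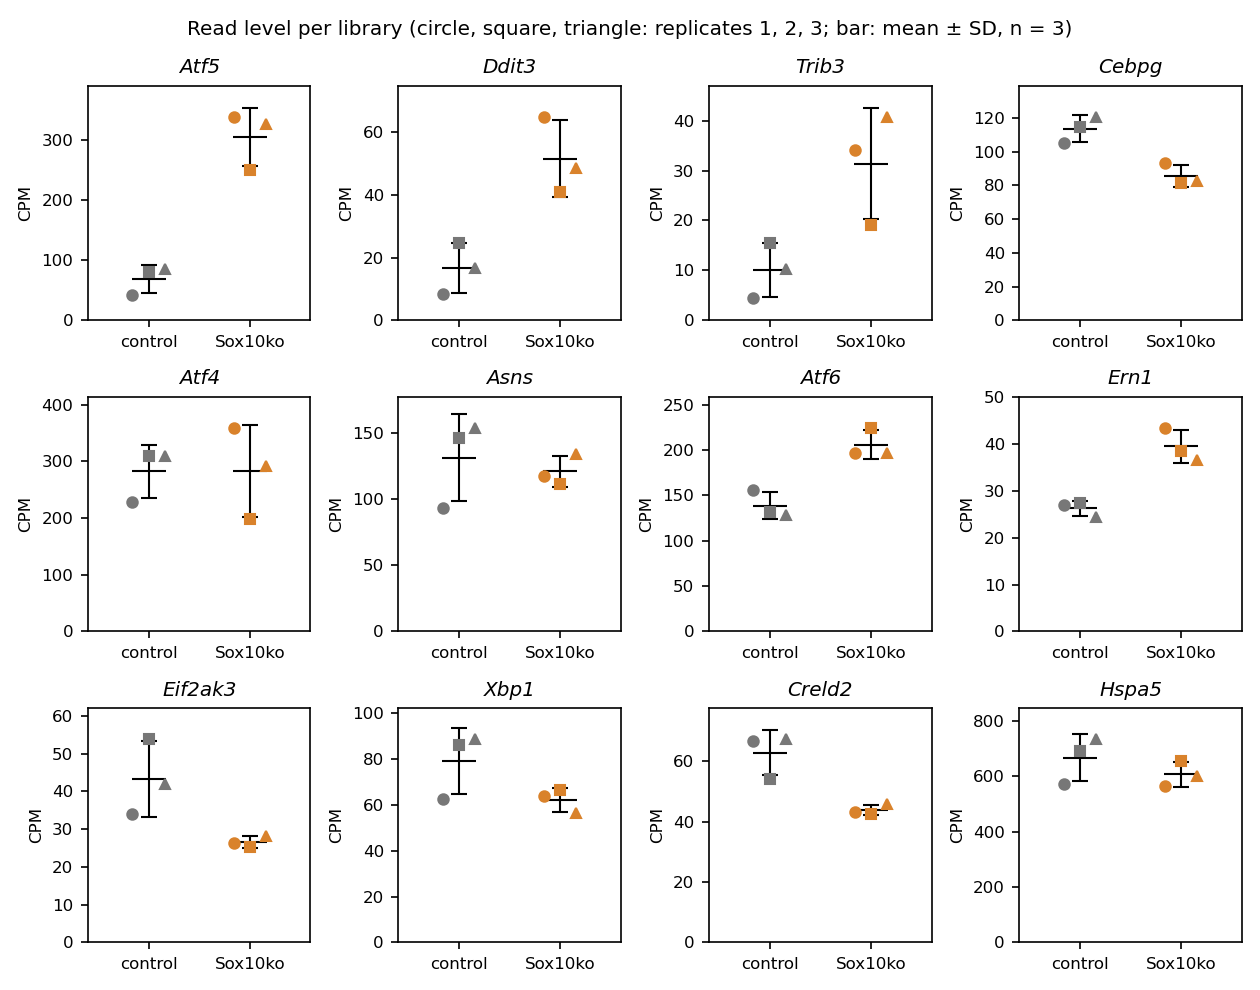
CPM in each library for the 8 genes called changed and for Atf4, Xbp1, Hspa5 and Asns, with points for the 3 control and 3 Sox10ko libraries, the group mean as a line and its SD as error bars; each panel starts at 0. Groups do not overlap in the panels of the called genes, and overlap for Atf4, Xbp1, Hspa5 and Asns.

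Within each group, nearly all ATF4-type targets shared their lowest library. For 14 of the 15 the lowest control value was in control 1, and for 14 of the 15 the lowest Sox10ko value was in Sox10ko 2. Over all tested genes those libraries held the lowest value of their group for 35.3% and 32.7%. Atf4 mRNA was also lowest in control 1 (228 CPM) and in Sox10ko 2 (198 CPM). In log2(CPM + 1) relative to each gene's control mean, the median of the 15 genes was -0.32, 0.19 and 0.16 in control 1, 2 and 3 and 0.59, 0.22 and 0.50 in Sox10ko 1, 2 and 3. The median of Sox10ko 2 was thus close to those of control 2 and control 3, and above that of control 1.

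In Sox10ko the folding genes mostly had another lowest library. In control, 9 of the 18 were lowest in control 1, as most ATF4-type genes were, and 11 were highest in control 3. Over all tested genes those shares were 35.3% and 27.7%. Of the 18 XBP1- and ATF6-type targets, 13 had their lowest Sox10ko value in Sox10ko 1, the library where 9 of 15 ATF4-type genes were highest, and 11 had their highest in Sox10ko 2. Over all tested genes Sox10ko 1 held the lowest value for 35.0% and Sox10ko 2 the highest for 31.7%. Variation within groups was larger for ATF4-type targets, with a median coefficient of variation of 21.3% in control and 18.9% in Sox10ko, than for ATF6-type targets, at 6.86% and 10.5%, and for XBP1-type targets, at 8.37% and 13.4%. Leaving out Sox10ko 2 brought the ATF4-type genes called higher from 3 to 6, with Vldlr, Cebpb and Ppp1r15a added. Of all 15816 genes tested without that library, 2417 were called higher. Leaving out control 3 brought the calls among the 38 from 8 to 3, with 2869 of all genes called in place of 4939.

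**Figure D4:**
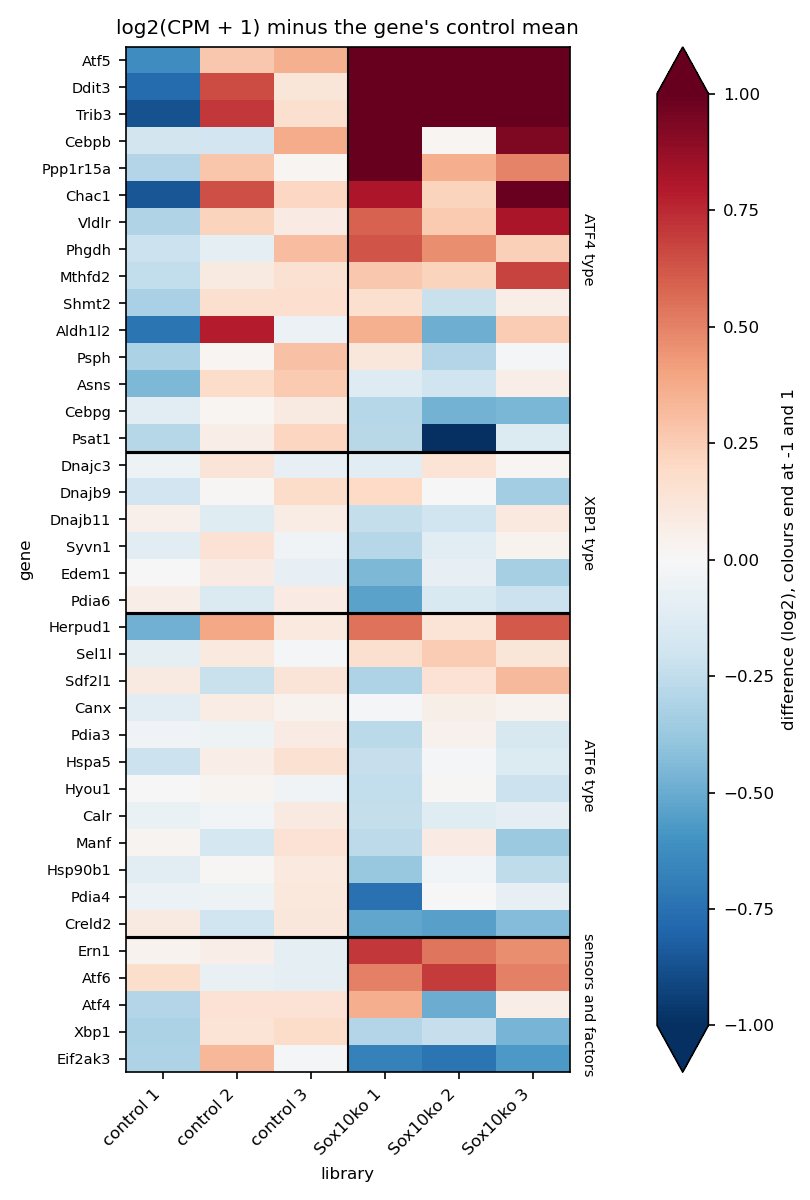
Each of the 38 genes in each of the 6 libraries, as log2(CPM + 1) minus the gene's mean over control libraries; colours end at -1 and 1. The control 1 column is below the control mean in all 15 ATF4-type rows, and the Sox10ko 2 column is the lowest of its group in 14 of them.

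Other genes of these pathways, from lists of known members, were read beside the 38. Their counts stand beside the 17.3% of all tested genes called higher and the 14.7% called lower. Of 20 further ATF4 targets with at least 10 reads in every control library, a minimum set after seeing the data, 6 (30.0%) rose and 0 fell with edgeR, and the median log2 fold change was 0.54. Another 3 of these 20 had an unadjusted p under 0.05 without passing, and not in 1 direction: Sesn2 (0.83 ± 0.30) and Slc6a9 (1.25 ± 0.42) were on the higher side, and Atf3 was on the lower side; all 3 are named after their values were seen. Atf3, which encodes a stress-induced transcription factor downstream of ATF4, was read at 44.1, 86.1 and 101 CPM in the controls and at 49.97, 11.7 and 25.0 CPM in Sox10ko. Its groups overlapped (log2 fold change -1.42 ± 0.52, edgeR adjusted p = 0.0766), and its fitted value was the lowest of the list. Over all 22 targets tested, which include 2 that lacked those control reads, Gdf15 among them, DESeq2 called 10 higher and 0 lower, limma-voom 8 and 0. Of the 31158 genes it tested without the low-count filter, DESeq2 called 3106 higher and 2725 lower. Of 15427 genes, limma-voom called 2567 higher and 2292 lower. Eif4ebp1, an inhibitor of cap-dependent translation, went from 61.0 ± 4.72 to 120 ± 10.5 CPM (SD, n = 3), a log2 difference of 0.97 ± 0.11 (edgeR adjusted p = 8.03e-04). The chromatin-associated stress regulator Nupr1 went from 4.93 ± 1.95 to 28.9 ± 10.5 CPM, a log2 difference of 2.55 ± 0.40 (edgeR adjusted p = 0.00329). Gdf15, which encodes a stress-induced hormone, had 4 reads over the 3 control libraries and 3.21, 5.19 and 3.81 CPM in Sox10ko, so that it was testable only through Sox10ko and could be called only higher. Among aminoacyl-tRNA synthetases, many of them ATF4 targets, 1 of 12 rose (Wars, 0.39 ± 0.10, edgeR adjusted p = 0.0214) and 0 fell, and that call was lost under 6 of 14 alternatives.

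Of 12 genes for other eIF2 kinases, eIF2, its exchange factor and the constitutive phosphatase subunit, 2 (16.7%) rose and 2 (16.7%) fell, shares near those of all tested genes. The largest fitted change of the 12 was in Eif2ak4, which encodes the amino acid sensor GCN2, a kinase that acts on eIF2 beside PERK. It was read at 26.8, 26.1 and 27.8 CPM in the controls and at 180, 97.0 and 103 CPM in Sox10ko, with no overlap (log2 fold change 2.24 ± 0.24, edgeR adjusted p = 7.45e-04). The kinase gene Eif2ak2 (PKR) rose by 0.77 ± 0.15, and Eif2b1, for a subunit of the exchange factor eIF2B, fell (-0.58 ± 0.09). The other fall was in the phosphatase subunit gene Ppp1r15b (-0.45 ± 0.10), named after its value was seen. Sox10ko cultures thus had more mRNA of GCN2 and PKR and less of PERK.

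Of the 13 one-carbon and serine genes outside the 38, 5 (38.5%) fell and 1 rose, Gldc, which had 3 reads in control 1 and is named after its value was seen. Mthfd1l, the mitochondrial enzyme that follows Mthfd2, went from 402 ± 41.4 to 141 ± 28.8 CPM, a log2 difference of -1.51 ± 0.17 (edgeR adjusted p = 7.74e-04). The cytosolic counterpart of Shmt2, Shmt1, fell (-0.82 ± 0.11). In ER translocation 2 of 15 fell (Spcs2 and Ssr1) and 0 rose. Of 16 further genes of ER-associated degradation, 3 (18.8%, near the share of all genes) rose and 0 fell. Erlec1 and Ube2j1 were among those that rose (0.55 ± 0.13 and 0.30 ± 0.09). Among 17 other folding genes Pdia5 rose, and Hspa13 and the collagen chaperone Serpinh1 fell. Of the 7 tested relatives and proteases of ATF6, Creb3l2 fell from 149 ± 2.20 to 79.4 ± 10.4 CPM (SD, n = 3), and Creb3l1, with 5 control reads in all, stood at 1.59, 4.91 and 9.49 CPM in Sox10ko. Outside the ER, 0 of 13 cytosolic heat shock genes were called with edgeR or limma-voom and 1 was called lower with DESeq2, with 2 at an unadjusted edgeR p under 0.05. In mitochondria 2 of 10 chaperones and proteases (20.0%, near the share of all genes) rose (Lonp1, 0.62 ± 0.16, and Hspa9, 0.45 ± 0.14). Without control 3, the calls of Wars, Ssr1, Serpinh1, Pdia5, Erlec1, Ube2j1, Lonp1 and Hspa9 were lost, with edgeR adjusted p-values from 0.0589 (Ssr1) to 0.16 (Ube2j1). The call of Ssr1 was lost under 11 of 14 alternatives, that of Ube2j1 under 8 and that of Hspa9 under 8.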

How the data were processed

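Messenger RNA of 3 control and 3 Sox10ko Msc80 cultures was measured; groups come from the titles and genotype labels. The kit was a stranded mRNA kit, per the labels' protocols. The authors deposited whole-number read counts per Ensembl gene ID; the deposited counts are raw and not corrected for gene length. Mouse build mm10 (GRCm38) and the tools STAR 2.6.0c, HTSeq and DESeq2 are named, per the submitters' processing notes; tool roles, annotation release and strand setting are not given in the sources, so overlapping antisense genes are uncertain.

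From the counts, genes were filtered with filterByExpr, scaled with TMM and tested with edgeR 4.0.16 (glmQLFit and glmQLFTest, R 4.3.3), two-sided, on all 6 libraries with no covariate. P-values were adjusted over 15427 genes, with 0.05 as the threshold. The fit was tested on simulated data. Lengths and positions come from GENCODE M21, promoter windows from RefSeq GRCm38.p6. Alternatives were DESeq2 1.42.0, limma-voom (limma 3.58.1), other scalings and filters, a replicate block, removal of chromosome medians, the genes under both XBP1 and ATF6 left out, and each library left out; running them on the further lists was chosen after seeing the data. The members and lists were chosen with earlier results of these data known. All 38 members are named, and of each further list at most the 3 called genes with the lowest adjusted p; some of these are not reported here.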

Additional observations from a re-analysis of the deposited data

How the results depend on the processing

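The calls of Atf5 and Ern1 held under all 14 alternatives. The other 6 called genes kept their direction everywhere and lost the call under at least 1 alternative. Of the 30 uncalled genes, 24 were called under none. ATF4-type genes called higher numbered 5 without a low-count filter, where 2947 of all 31218 genes tested were called higher. With DESeq2 they also numbered 5, beside 3106 of all 31158 genes tested. With the replicate block, ATF4-type calls were 2 higher and 0 lower (3537 of all genes), Trib3 was at 1.74 (edgeR adjusted p = 0.0625) and Cebpg at -0.41 (0.0723). Correlations of same-numbered deviations were -0.12, -0.04 and 0.04. The titles do not say whether same-numbered cultures were handled together, and these correlations cannot decide it. Why calls were lost with the block was not tested. With chromosome medians removed, 1 XBP1-type gene (Edem1) and 0 ATF6-type genes were called lower, beside 2653 of all 15427 genes tested.

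Leaving out 1 library at a time gave 3 to 8 members higher, 0 to 4 lower, 2 to 6 ATF4-type genes higher, 0 to 1 ATF4-type, 0 to 1 XBP1-type and 0 to 1 ATF6-type genes lower, an XBP1-type median of -0.22 to -0.10, and 2869 to 4681 of all genes. The median of the 38 was -0.05, and 0.01 with library size alone or without control 3. With library size alone that of all genes was 0.08 in place of 0.02, and that of ATF4-, XBP1- and ATF6-type targets 0.50, -0.06 and -0.08.

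Of the 38 genes, only uncalled ones with values near 0 changed sign. On the log2 scale these were Psph (0.0178, chromosome medians; -0.25 to 0.0598 over left-out libraries), Shmt2 (0.0512, library size alone; 0.0381, mean of at least 5 CPM; 0.00136, limma-voom; 0.00068, replicate block; -0.17 to 0.0867), Aldh1l2 (0.0102, library size alone; 0.0378, limma-voom; 0.0547, replicate block; -0.37 to 0.43), Dnajb9 (0.0185, library size alone; 0.00394, mean of at least 5 CPM; -0.18 to 0.0886), Dnajc3 (-0.0229, no filter; -0.00635, DESeq2; -0.0552 to 0.0742), Canx (-0.0144, no filter; -0.0388, chromosome medians; -0.0474 to 0.0468), Sdf2l1 (-0.024, chromosome medians; -0.0838 to 0.23) and Atf4 (-0.00559, DESeq2 size factors; -0.0366, no filter; -0.0191, DESeq2; -0.0226, limma-voom; -0.0236, replicate block; -0.21 to 0.20). Dnajc3 also moved away from 0, up to 0.28 over its 14 alternatives, without being called. Over the tested genes of chromosome 14, where it lies, the median log2 fold change was -0.24. The cause of each change was not tested. Depth was at least 81 reads per member and library, and replicate libraries differed by a chi-square per degree of freedom of 24.7 to 80.9, where counting error alone gives 1.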
